A study of Canis lupus familiaris with 23 samples.

Results

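Gene expression in 15 primary osteosarcomas of pet dogs was set against 2 normal lymph nodes of research-colony dogs. The samples were taken by their labels: the 15 given as osteosarcoma tumor and the 2 given as normal lymph node made up 17 of the 23 samples of the series, and the remaining samples were 2 kidneys, 2 livers and 2 osteosarcoma cell lines. All tumors had been taken before any chemotherapy, in surgery with curative intent, and neither group carried an experimental treatment. The nodes came from colony animals and not from the dogs with tumors, and no normal bone was among the samples. A difference between the groups is therefore one between bone-forming tumors of pet dogs and an immune organ of colony dogs. The tissue and the source of the animals cannot be told apart in it. Expression was read on 1 type of Affymetrix canine array as log2 values, on which 1 unit is a 2-fold difference. Of 23836 probe sets tested, those with 1 gene symbol named 6540 genes, and each gene was read from the probe set that was brightest on average across all 23 samples.

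A lymph node is packed with T and B lymphocytes, which a scaffold of stromal cells attracts with chemokines and arranges into zones, and which dendritic cells and macrophages supply with antigen. Osteosarcoma consists of malignant cells of the osteoblast lineage that lay down osteoid, a matrix made mostly of type I collagen, and the tumor also holds vessels, macrophages and osteoclasts. Bulk tissue was measured, so that fewer cells of a type and less RNA of a gene per cell cannot be told apart in any of the differences that follow. The values carry no total amount of RNA per cell, and differences between dim genes are compressed by the authors' summarization.

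The arrays differed in a way the groups did not explain. A 5′ index was taken as the signal at the 3′ end less that at the 5′ end, averaged over actin and Gapdh, and it is near 0 where labelled RNA is of full length. It was -0.32 to 0.80 in tumors 2, 3, 5, 6, 9, 11, 13 and 15 (full 5′ signal) and 3.15 to 4.70 in the other 7 tumors (low 5′ signal). The nodes fell on either side, lymph node 1 with low 5′ signal at 5.45 and lymph node 2 with full signal at 0.08. Each class thus holds 1 node, and differences are also given within each class, as the 7 tumors with low signal against lymph node 1 and the 8 with full signal against lymph node 2. The nodes correlated with each other at r = 0.944 across probe sets, and the 30 pairs of a tumor and a node at 0.854 to 0.931.

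The labelled tissues were checked against marker genes. CD3D, a chain of the T cell receptor complex, stood at 10.74 and 11.07 in the nodes, and CCL21, the chemokine of lymph node stroma, at 10.30 and 11.72. Of 5 B cell markers only PAX5, the transcription factor of B cell identity, was measured, and it lay at 3.95 and 4.04 in the nodes against 3.57 to 4.07 in tumors, so B cells were not marked by it on these arrays. CD48, the only one of 3 pan-leukocyte markers measured, stood at 6.64 and 5.41 in the nodes and 4.15 to 5.88 in tumors. In tumors the collagen genes COL1A1 and COL1A2 reached at least 9.58 and 12.01, while the osteoblast genes RUNX2 (4.49 to 5.76) and BGLAP (4.58 to 6.40) were dim, and ALPL ranged from 3.98 to 8.79.

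The comparison asks which genes set the tumors apart from lymph node. In limma at an adjusted p under 0.01, 318 probe sets were higher in tumors (1.33% of those tested) and 693 lower (2.91%). Over genes, 165 were higher (2.52%) and 224 lower (3.43%). Differences over 8-fold were called for 56 higher and 42 lower genes. The largest excess was that of the collagen gene COL1A1 and the deepest deficit that of RIPOR2. For 366 genes (5.6%) all 15 tumors lay above both nodes and for 515 (7.87%) all lay below; 161 of the 165 higher and 218 of the 224 lower genes were among them. Without lymph node 1 the counts over genes were 99 higher and 134 lower, and without lymph node 2 they were 46 and 87.

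**Figure D1:**
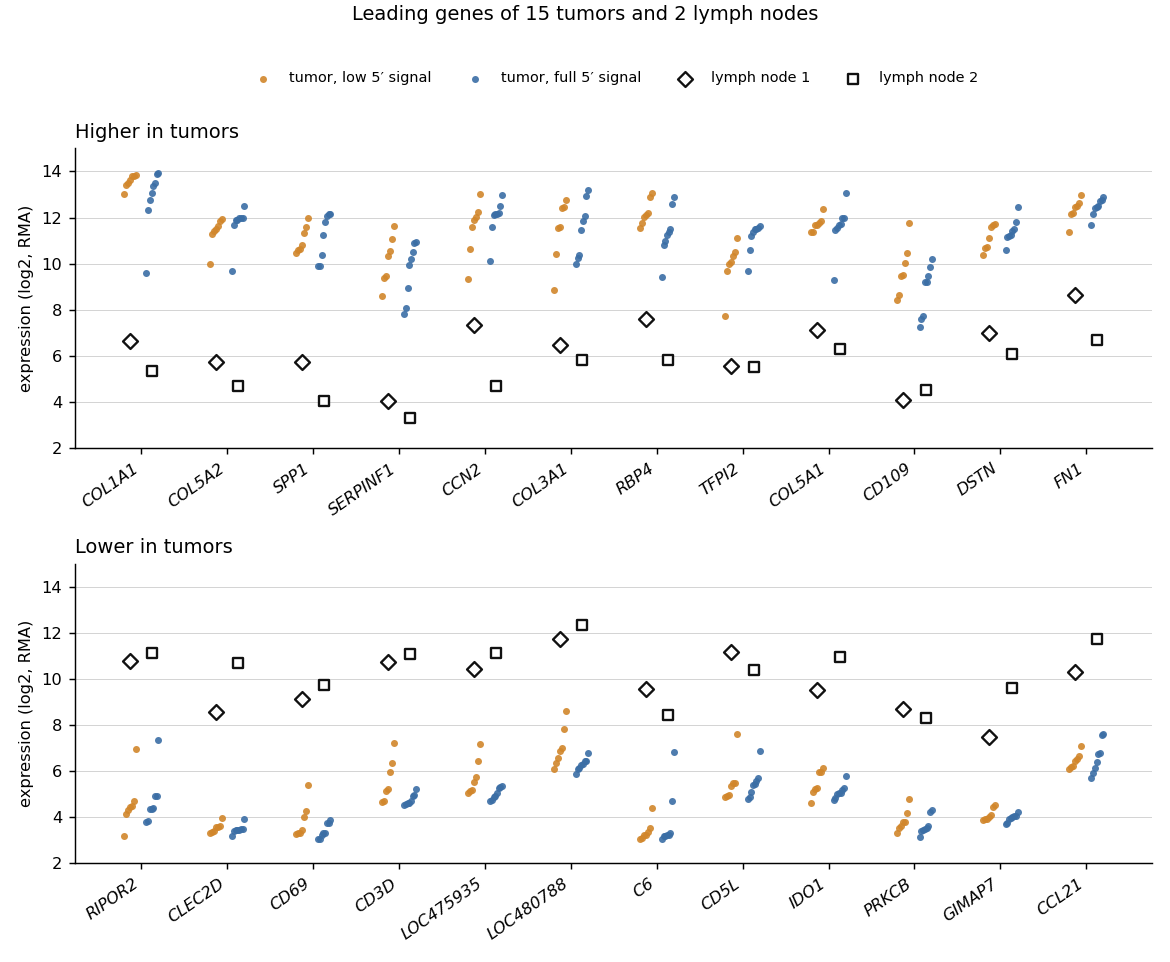
Expression (log2, y axis) of the 12 genes with the largest excess (upper panel) and the 12 with the largest deficit (lower panel) in tumors, 1 point per array, with tumors coloured by 5′ signal class and the nodes as open symbols. In all 24 genes every tumor lies on the same side of both nodes, and COL1A1 at 9.58 in tumor 5 and RIPOR2 at 7.36 in tumor 5 are the tumors nearest to the nodes for these genes.

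T cell genes were lower in tumors. CD3D lay at 10.74 and 11.07 in the nodes and at 4.52 to 7.20 (median 4.90) in tumors. No tumor overlapped the nodes, and tumor 10 was the highest. The difference was -5.75 ± 0.49 (SE; adjusted p = 1.01e-07). CD3E, another chain of the same complex, lay at 8.09 and 9.79 in the nodes and 6.27 to 7.33 in tumors (-2.12 ± 0.30, adjusted p = 5.69e-05). RASGRP1, which carries the receptor's signal to Ras, lay at 7.35 and 8.45 in the nodes and 4.65 to 6.41 in tumors (-2.52 ± 0.38, adjusted p = 0.000127). PRKCQ, the protein kinase C isoform of T cell activation, differed by -3.88 ± 0.73 (adjusted p = 0.00138) with 14 tumors at 2.83 to 3.94, while tumor 5 stood at 7.37, between lymph node 1 at 6.70 and lymph node 2 at 7.91.

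Of 40 genes listed for T cell receptor signalling 15 were measured, and 8 of them were lower and 0 higher, against 3.43% and 2.52% of all genes. These 2 shares over all genes are the background for every list that follows. The lists were chosen with earlier results of these data known, so the counts describe a list and do not test it. The median over the 15 was -1.40, beside -0.01 over all genes. The 4 called members not yet named were the co-stimulatory receptors CD28 and ICOS, the kinase LCK and CD40LG, with differences of -2.07 to -1.40. CD8A (-0.98, adjusted p = 0.0145) and CD4 (-0.78, adjusted p = 0.0257), the co-receptors of the main T cell classes, did not pass; these 6 genes were named after their values were seen. The 2 nodes were unlike for this list. In 14 of 15 members lymph node 2 was above lymph node 1, by a median of 1.15, and the list median was -2.14 without lymph node 1 and -0.38 without lymph node 2. CD3D kept its call without either node, whereas without lymph node 2 CD3E was at -1.27 (adjusted p = 0.0232), RASGRP1 at -1.97 (0.0359) and PRKCQ at -3.27 (0.104), and without lymph node 1 PRKCQ had an adjusted p of 0.0103.

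The deepest deficits included other genes of lymphocytes and antigen receptors. RIPOR2 lay at 10.76 and 11.12 in the nodes and 3.19 to 7.36 (median 4.41) in tumors, with tumors 5 and 10 the highest, and its difference was -6.26 ± 0.70 (adjusted p = 4.03e-06). CLEC2D, a lectin-like ligand of a natural killer cell receptor, lay at 8.58 and 10.67 in the nodes and 3.17 to 3.95 in tumors (-6.12 ± 0.29, adjusted p = 2.03e-11). The tumors spanned under 1 unit there, and the nodes differed from each other by more than that. The SE comes from a spread shared by all 5 groups, as does every SE given here. For CLEC2D the SD was 1.47 over the nodes and 0.20 over the tumors, so its p does not measure how far nodes vary. CD69, an early activation marker of lymphocytes, lay at 9.13 and 9.75 in the nodes and 3.05 to 5.38 in tumors (-5.81 ± 0.39, adjusted p = 3.44e-09), and tumor 10 was again the highest.

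LOC480788, which RefSeq lists as an antigen receptor constant region, lay at 11.72 and 12.32 in the nodes and 5.85 to 8.59 in tumors (-5.38 ± 0.47, adjusted p = 1.30e-07). Its 3 other probe sets differed by -4.66 to -0.51. LOC475935, a protein-coding gene without a descriptive name in the tables used, lay at 10.42 and 11.12 in the nodes and 4.68 to 7.17 in tumors (-5.40 ± 0.43, adjusted p = 3.71e-08). For CD3D and both of these genes, tumors 10, 14 and 7 were the 3 highest tumors. PRKCB, the protein kinase C isoform of B cell receptor signalling, lay at 8.70 and 8.32 in the nodes and 3.16 to 4.81 in tumors (-4.76 ± 0.32, adjusted p = 3.22e-09). GIMAP7, a GTPase of lymphocyte survival, lay at 7.46 and 9.62 in the nodes and 3.70 to 4.52 in tumors (-4.51 ± 0.30, adjusted p = 3.22e-09). Each of the 12 genes with the deepest deficit kept its call when either node was left out. On low 5′ arrays alone RIPOR2, CD69, CD3D, CD5L, LOC475935 and LOC480788 lost it, and on full 5′ arrays alone C6 did.

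The list of leukocyte cytoskeleton and signalling genes had 16 measured members, of which 9 were lower and 1 higher, with a median of -1.93. ARHGAP15, a brake on the GTPase Rac, lay at 8.04 and 8.72 in the nodes and 3.62 to 5.37 in tumors (-4.18 ± 0.28, adjusted p = 3.66e-09). LAPTM5, a lysosomal protein of blood cells, was less separated at 10.85 and 10.35 in the nodes and 7.05 to 10.11 in tumors (-2.56 ± 0.54, adjusted p = 0.00378), and lost its call without lymph node 1 (adjusted p = 0.1) or lymph node 2 (0.0502). The exception was DOCK8, an exchange factor of migrating lymphocytes, at 6.14 and 5.38 in the nodes and 6.88 to 9.43 in tumors (2.34 ± 0.50, adjusted p = 0.00469). Its other probe set differed by -0.98, and the gene lost its call without lymph node 1 (0.0262) or lymph node 2 (0.195).

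Genes that draw lymphocytes into the node were lower in 5 of 11 measured cases and higher in none. CCL21, which guides T cells and dendritic cells through its receptor CCR7, lay at 10.30 and 11.72 in the nodes and 5.71 to 7.62 in tumors (-4.48 ± 0.40, adjusted p = 1.63e-07), and its 2 other probe sets differed by -5.25 and -4.43. ICAM2, an adhesion molecule of vessel walls, lay at 8.58 and 8.91 in the nodes and 5.68 to 7.32 in tumors (-2.18 ± 0.36, adjusted p = 0.000356), and its second probe set by -0.02. The integrin subunit ITGB7 (-1.88 ± 0.30, adjusted p = 0.000237), the selectin ligand SELPLG (-1.84 ± 0.30, adjusted p = 0.000335) and the integrin subunit ITGB2 (-1.77 ± 0.25, adjusted p = 6.49e-05) completed the group, the last named after its value was seen. ITGB7 lost its call without lymph node 1 (0.0474), and ICAM2 (0.0327) and SELPLG (0.0352) without lymph node 2.

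B cell genes were thinly covered. Of 35 listed, 5 were measured, 2 of them lower and 0 higher. CD40, the receptor for T cell help, lay at 9.09 and 8.91 in the nodes and 5.82 to 6.87 in tumors (-2.68 ± 0.33, adjusted p = 1.46e-05), and CD37, a tetraspanin of mature B cells, at 7.58 and 7.15 against 5.04 to 6.03 (-1.79 ± 0.26, adjusted p = 7.39e-05). Neither overlapped, and each kept its call without either node, but CD40 lost it on the arrays of either 5′ class alone. BCL11A, a transcription factor of the B lineage, was lower by a similar amount (-1.85 ± 0.18, adjusted p = 8.26e-07), alone among 5 measured lymphocyte transcription factors. Plasma cell genes had 5 measured members, 0 called in either direction. JCHAIN, the joining chain of secreted antibodies, lay at 11.58 and 12.78 in the nodes and from 5.63 to 11.31 in tumors with tumor 10 at the top (-4.26 ± 1.06, adjusted p = 0.0141), and CD38 differed by -2.73 ± 0.78 (adjusted p = 0.0339). Of 5 germinal centre genes 0 were called, with CD80 at -2.04 ± 0.59 (adjusted p = 0.0376) and LMO2 at -1.49 ± 0.48 (adjusted p = 0.0675) the most distant. Of 2 cytotoxic genes NKG7, a granule protein, was lower, at 8.01 and 6.41 in the nodes and 4.30 to 5.52 in tumors (-2.56 ± 0.33, adjusted p = 2.61e-05).

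**Figure D2:**
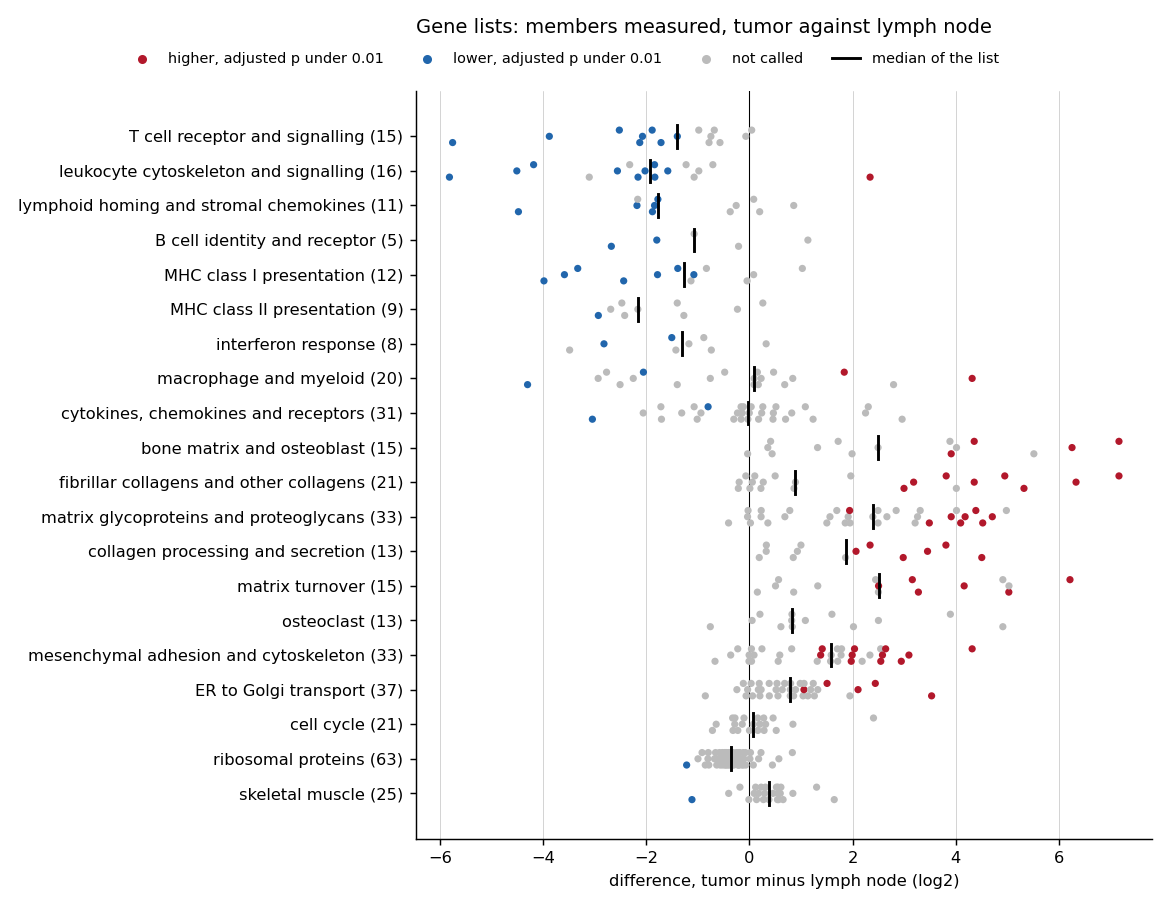
Difference of each measured member of 20 gene lists, tumor minus lymph node (log2, x axis), with called members in colour, other members in grey, the number measured in parentheses and a bar at the median of each list. Medians run from -2.16 for MHC class II presentation to 2.50 for matrix turnover, and the macrophage and cytokine lists lie around 0 with members called in both or in 1 direction.

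Genes of MHC class I presentation, which shows peptides of a cell's own proteins to cytotoxic T cells, were lower in 7 of 12 measured cases and higher in 0. PSMB8 and PSMB9 are the inducible subunits of the immunoproteasome, which cuts those peptides. PSMB8 lay at 10.03 and 9.73 in the nodes and 4.72 to 7.59 in tumors (-3.98 ± 0.60, adjusted p = 0.000141), and its 2 other probe sets differed by -4.11 and -3.69. PSMB9 lay at 11.06 and 11.42 in the nodes and 5.25 to 9.72 in tumors (-3.33 ± 0.69, adjusted p = 0.00324). TAP1, a subunit of the peptide transporter, lay at 9.91 and 10.01 in the nodes and 6.65 to 8.69 in tumors (-2.44 ± 0.39, adjusted p = 0.000293), and DLA-79, a class I heavy chain, at 10.70 and 11.21 against 5.87 to 9.52 (-3.58 ± 0.69, adjusted p = 0.00166). Tumor 10 was the highest tumor for all 4 genes, and none reached the nodes. The other 3 called members, named after their values were seen, were the class I chain DLA88 (-1.78), the proteasome activator subunit PSME2 (-1.39) and the transporter subunit TAP2 (-1.08). B2M, the light chain of class I molecules, lay at 13.21 and 12.92 in the nodes and 11.78 to 12.998 in tumors and did not pass (-0.83 ± 0.27, adjusted p = 0.0644), and the general chaperones CANX (-0.04 ± 0.20) and CALR (0.08 ± 1.10) did not pass either. PSMB8 kept its call without either node, but lost it on the arrays of either 5′ class alone. Without lymph node 1, DLA-79 (0.0224) and PSMB9 (0.0412) lost it, and without lymph node 2 DLA-79 (0.0777), PSMB9 (0.103) and TAP1 (0.0196).

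MHC class II molecules show peptides to helper T cells and are borne by B cells, dendritic cells and macrophages. The median of the 9 measured members was -2.16, yet 1 was called lower and 0 higher. The called gene was DLA-DOA, a modulator of peptide loading in B cells, at 7.55 and 8.28 in the nodes and within 4.84 to 5.23 in tumors (-2.93 ± 0.15, adjusted p = 5.19e-11). The classical chains were bright and spread over the tumors: DLA-DRA lay at 13.04 and 13.02 in the nodes and 8.53 to 12.40 in tumors (-2.16 ± 0.74, adjusted p = 0.0879), and DLA-DQB1 at 12.22 and 12.10 against 7.09 to 11.68 (-2.69 ± 0.75, adjusted p = 0.0312). For DLA-DRA, DLA-DQB1, DLA-DQA1 and HLA-DRB1 all 15 tumors lay below both nodes although none passed, an order that 7.87% of all genes had. These 4 were named after their values were seen. As a mean over the list's members relative to the nodes, tumors ran from -2.72 in tumor 6 to -0.49 in tumor 10.

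Macrophage genes did not move in 1 direction. Of 20 measured members 2 were higher and 2 lower, with a median of 0.09. MARCO, a scavenger receptor of node and spleen macrophages, lay at 11.04 and 8.44 in the nodes and 4.35 to 8.30 in tumors (-4.30 ± 0.71, adjusted p = 0.000381), and tumor 8 approached lymph node 2. AIF1, an actin-binding protein of macrophages, lay at 9.42 and 8.28 in the nodes and 5.73 to 7.81 in tumors (-2.05 ± 0.47, adjusted p = 0.0071). CD14, the co-receptor for endotoxin, was higher, with 7.24 and 7.61 in the nodes and 8.53 to 10.48 in tumors (1.84 ± 0.41, adjusted p = 0.0067). LGALS3, galectin 3, which mesenchymal and tumor cells also make, was higher by 4.32 ± 0.45 (adjusted p = 1.67e-06), from 8.80 and 6.14 in the nodes to 11.01 to 12.64 in tumors. The general macrophage markers CD68 (0.84 ± 0.96, adjusted p = 0.82), CSF1R (-0.48 ± 0.80, adjusted p = 0.901) and CD163 (0.47 ± 0.95, adjusted p = 0.925) overlapped between the groups, and CD68 alone ran from 6.37 in tumor 5 to 11.63 in tumor 10. The list median turned to -0.56 without lymph node 2. MARCO lost its call without lymph node 1 (adjusted p = 0.0687), CD14 without lymph node 1 (0.142) or lymph node 2 (0.0743), and AIF1 without lymph node 1 (0.269), without lymph node 2 (0.0244) or without any of tumors 2, 3, 4, 8 and 15 (0.01 to 0.0103). CD14 also reached 0.01 without tumor 15.

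**Figure D3:**
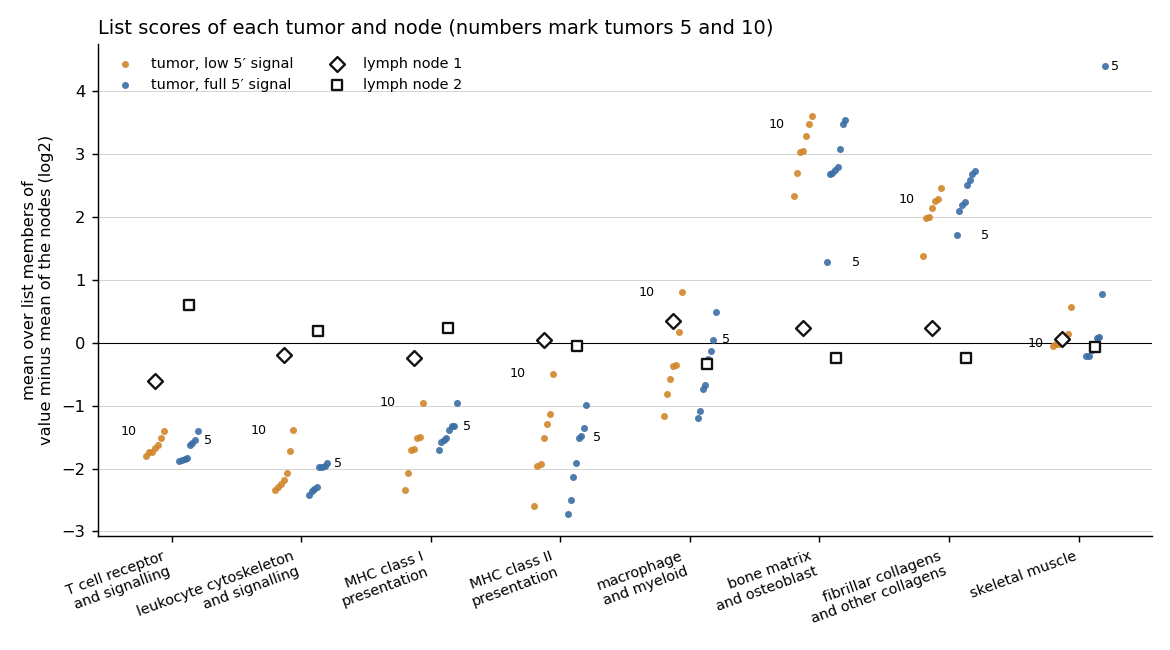
Mean over the measured members of 8 gene lists of the value minus the mean of the nodes (log2, y axis) for each tumor and each node, with tumors 5 and 10 numbered. Every tumor lies below both nodes for T cell genes, from -1.88 to -1.40, while the macrophage scores of tumors, from -1.19 to 0.81, surround the nodes at 0.34 and -0.34, and tumor 5 stands apart at 4.40 for skeletal muscle genes.

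Single genes of other immune functions were among the deepest deficits. C6, a component of the membrane attack complex, lay at 9.54 and 8.45 in the nodes and 3.04 to 6.83 in tumors with tumor 5 the highest (-5.35 ± 0.66, adjusted p = 1.19e-05). CD5L, a lipid-binding protein secreted by macrophages, lay at 11.16 and 10.41 in the nodes and 4.79 to 7.63 in tumors (-5.28 ± 0.56, adjusted p = 2.05e-06). IDO1, the tryptophan-degrading enzyme of dendritic cells and the only called member of 4 measured dendritic cell genes, lay at 9.53 and 10.93 in the nodes and 4.63 to 6.15 in tumors (-4.95 ± 0.37, adjusted p = 1.37e-08). Tumors 7, 10 and 14 were the highest for IDO1. Among 16 measured complement genes, C6 was the lower one and CD59, which shields cells from the membrane attack complex, the higher one (3.04 ± 0.68, adjusted p = 0.00598), from 6.90 and 5.18 in the nodes to 7.37 to 10.61 in tumors. CD59 lost its call without lymph node 1 (0.0132) or lymph node 2 (0.313).

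Interferon-induced genes were lower in 2 of 8 measured cases: XAF1, a pro-apoptotic protein, at 8.16 and 8.03 in the nodes and 4.84 to 5.75 in tumors (-2.82 ± 0.20, adjusted p = 8.15e-09), and the antiviral GTPase MX2 (-1.50 ± 0.31, adjusted p = 0.00331), which stood at -0.99 without lymph node 2 (adjusted p = 0.293). The chemokine CXCL10, named after its value was seen, differed by -3.48 ± 1.06 and did not pass (adjusted p = 0.05). Of 31 measured cytokines, chemokines and receptors 2 were lower and 0 higher, with a median of -0.03. IL18, which primes interferon-gamma release, lay at 6.72 and 9.33 in the nodes and 3.83 to 6.36 in tumors (-3.04 ± 0.66, adjusted p = 0.00521), and IL2, the T cell growth factor, at 3.73 and 4.32 against 2.99 to 3.49 (-0.80 ± 0.12, adjusted p = 0.000125). Both rested on lymph node 2: without it IL18 was at -1.74 (adjusted p = 0.427) and IL2 at -0.50 (0.0521). CXCL8, a chemokine for neutrophils, was spread from 4.13 to 12.76 in tumors without passing (2.96 ± 1.75, adjusted p = 0.461). Neutrophil and mast cell genes gave 0 calls among 6, the most distant being FCER1A (-0.99 ± 0.72, adjusted p = 0.599) and MS4A2 (-0.37 ± 0.20, adjusted p = 0.37).

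Bone matrix genes were higher in tumors in 4 of 15 measured cases and lower in 0, with a list median of 2.50. COL1A1, the first chain of the main collagen of bone, lay at 6.64 and 5.35 in the nodes and 9.58 to 13.94 (median 13.49) in tumors. The 14 tumors other than tumor 5 lay at or above 12.32, and the difference of 7.16 ± 0.74 (adjusted p = 1.29e-06) was the largest of all genes called. SPP1, osteopontin, a mineral-binding phosphoprotein of bone, lay at 5.73 and 4.04 in the nodes and 9.91 to 12.15 in tumors (6.25 ± 0.63, adjusted p = 8.87e-07). COL1A2, the partner chain, differed by 4.36 ± 0.43 (adjusted p = 8.26e-07) from 10.04 and 8.20 in the nodes, and SPARC, osteonectin, by 3.91 ± 0.45 (adjusted p = 5.50e-06) from 9.90 and 7.85. All 4 kept their calls without either node. ALPL (1.32 ± 0.92, adjusted p = 0.577), RUNX2 (0.41 ± 0.24, adjusted p = 0.451) and BGLAP (-0.03 ± 0.40, adjusted p = 0.991), which mark osteoblast differentiation, did not pass, although RUNX2 was above both nodes in all 15 tumors. The other probe set of BGLAP differed by 1.58.

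Of 21 measured collagens 8 were higher and 0 lower. COL5A2, a regulatory chain of collagen fibrils, lay at 5.72 and 4.71 in the nodes and 9.67 to 12.50 in tumors (6.33 ± 0.52, adjusted p = 6.47e-08). COL5A1, its partner, lay at 7.11 and 6.29 against 9.27 to 13.04 (4.95 ± 0.52, adjusted p = 1.71e-06), and COL3A1, the collagen of soft connective tissue, at 6.47 and 5.83 against 8.84 to 13.18 (5.32 ± 0.80, adjusted p = 0.000127). The other probe sets differed by 0.18 to 3.13 for COL5A2 and by 0.66 to 3.75 for COL3A1. Tumor 5 was the lowest tumor for COL1A1 and COL5A2 and tumor 12 for COL3A1. The basement membrane chains COL4A1 (3.82 ± 0.51, adjusted p = 3.67e-05) and COL4A2 (3.18 ± 0.49, adjusted p = 0.000166) and the vessel-associated COL15A1 (2.998 ± 0.71, adjusted p = 0.0096), named after their values were seen, were higher as well. The cartilage collagen COL2A1 (0.01) and the remaining basement membrane chains COL4A3 to COL4A6 (-0.21 to 0.27) lay near 0. COL3A1 lost its call without lymph node 2 (adjusted p = 0.0146). Differences of COL1A2 and SPARC were larger against lymph node 2 than against lymph node 1, since lymph node 1 held more of both.

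Glycoproteins and proteoglycans of the matrix were higher in 8 of 33 measured cases and lower in 0, with a median of 2.39. FN1, fibronectin, lay at 8.66 and 6.70 in the nodes and 11.37 to 12.97 in tumors (4.71 ± 0.38, adjusted p = 4.99e-08). The other probe sets of FN1 differed by 0.40 to 6.29. DCN, decorin, which coats collagen fibrils, lay at 9.36 and 6.39 against 11.04 to 13.41 (4.52 ± 0.57, adjusted p = 1.75e-05). FBLN1, fibulin 1, differed by 4.39 ± 0.72 (adjusted p = 0.000319) and CCDC80 by 4.18 ± 0.62 (adjusted p = 0.000116). Lymph node 1 was above lymph node 2 in 28 of the 33 genes. FBLN1 lost its call without lymph node 1 (0.0136) or lymph node 2 (0.0156), and CCDC80 without lymph node 2 (0.0417).

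Enzymes that fold, trim and crosslink collagen were higher in 6 of 13 measured cases. P4HA2, a subunit of the prolyl hydroxylase, lay at 6.17 and 4.99 in the nodes and 7.85 to 12.79 in tumors (4.51 ± 0.71, adjusted p = 0.000228). LOXL2, a lysyl oxidase, lay at 6.97 and 5.51 against 8.37 to 11.51 (3.81 ± 0.66, adjusted p = 0.000576). PCOLCE, which speeds removal of the procollagen tail, differed by 3.45 ± 0.55 (adjusted p = 0.000245) and SERPINH1, the collagen chaperone, by 2.98 ± 0.52 (adjusted p = 0.000592). Without lymph node 2, adjusted p rose to 0.0341 for P4HA2, 0.0779 for LOXL2, 0.0287 for PCOLCE and 0.0384 for SERPINH1, and without lymph node 1 to 0.0124 for SERPINH1. The differences against the remaining node stayed above 2.8 in each case.

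Proteases and inhibitors of matrix turnover were higher in 6 of 15 measured cases. SERPINF1, a secreted inhibitor of vessel growth and bone loss, lay at 4.05 and 3.29 in the nodes and 7.82 to 11.62 in tumors (6.22 ± 0.80, adjusted p = 2.23e-05), and its second probe set differed by 0.31. TFPI2, an inhibitor of matrix-degrading proteases, lay at 5.54 and 5.52 against 7.75 to 11.65 (5.03 ± 0.71, adjusted p = 6.74e-05). TIMP1, an inhibitor of metalloproteinases, lay at 8.61 and 7.23 against 11.23 to 13.14 (4.16 ± 0.41, adjusted p = 8.26e-07). The gelatinase MMP2 was higher by 3.28 ± 0.58 (adjusted p = 0.000768), a call lost without lymph node 1 (0.0444) or lymph node 2 (0.013). MMP9, the gelatinase of osteoclasts, lay at 5.91 and 5.77 in the nodes and above both in all 15 tumors, but ran from 6.31 to 12.98 among them and did not pass (4.91 ± 1.34, adjusted p = 0.026). The collagen protease of osteoclasts, CTSK, did not pass either (2.50 ± 0.62, adjusted p = 0.0134), and no gene of the 13 measured osteoclast genes was called, with ATP6V0D2, a proton pump subunit, at 3.90 ± 1.39 (adjusted p = 0.109). Cartilage genes gave 0 calls among 6, with ACAN at 3.31 ± 1.05 (adjusted p = 0.0605) and COMP at 1.92 ± 0.90 (adjusted p = 0.28).

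Among 23 measured genes of Wnt, BMP and TGF-beta signalling 2 were higher and 0 lower. CCN2, a matricellular target of TGF-beta, lay at 7.32 and 4.69 in the nodes and 9.35 to 13.02 in tumors (5.77 ± 0.72, adjusted p = 1.65e-05). CTNNB1, beta-catenin, was bright throughout and differed by 0.98 ± 0.18 (adjusted p = 0.00111), with an adjusted p of 0.0962 without lymph node 2. Growth factors and receptors had 24 measured members, 3 of them higher: FGFR2 (4.70 ± 1.01, adjusted p = 0.00452), PDGFRL (3.71 ± 0.77, adjusted p = 0.00331) and PDGFD (3.07 ± 0.63, adjusted p = 0.00318). FGFR2 lay at 4.22 and 4.26 in the nodes and from 5.07 to 10.37 in tumors, but its 4 other probe sets differed by only 0.28 to 0.81. PDGFRL lay at 8.14 and 5.27 in the nodes and 8.60 to 12.33 in tumors, and stood at 2.28 without lymph node 2 (adjusted p = 0.33). Of its 5 other probe sets, 1 had the opposite sign (-0.13). Without lymph node 1 the adjusted p of FGFR2 was 0.0709 and of PDGFD 0.0436, and without lymph node 2 they were 0.0954 and 0.0968.

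Genes of transport between the endoplasmic reticulum and the Golgi, on which collagen secretion depends, were higher in 5 of 37 measured cases and lower in 0. KDELR3 and KDELR2, receptors that return escaped chaperones, lay at 7.01 and 6.34 (KDELR3) and 9.94 and 9.02 (KDELR2) in the nodes. In tumors KDELR3 was higher by 3.53 ± 0.40 (adjusted p = 4.39e-06) and KDELR2 by 2.11 ± 0.29 (adjusted p = 5.20e-05). The COPII coat genes SEC23A (2.44 ± 0.41, adjusted p = 0.000427) and SEC31A (1.51 ± 0.26, adjusted p = 0.000592) were higher too, as was the GTPase RAB2A (1.06 ± 0.24, adjusted p = 0.00626), named after its value was seen. Calls were lost without lymph node 1 for SEC23A (0.0252) and without lymph node 2 for SEC23A (0.0114), SEC31A (0.0486) and KDELR2 (0.0181). Of 36 measured genes of protein folding in the reticulum, CALU, a calcium-binding protein of the secretory pathway, was the 1 called, at 8.27 and 8.42 in the nodes and 10.55 to 11.88 in tumors (2.90 ± 0.26, adjusted p = 1.63e-07). That is 2.78% of the list, against 2.52% of all genes called higher. With the median of a gene's probe sets CALU lost its call (adjusted p = 0.0174).

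Of 33 measured mesenchymal adhesion and cytoskeleton genes 18 had all tumors above both nodes, against 5.6% of all genes, and the median was 1.59. Called higher were 11 (33.3%, against 2.52% of all genes) and lower 0. Apart from LGALS3 these included the integrin subunit ITGB5 (3.09 ± 0.37, adjusted p = 9.09e-06), the syndecan SDC2 (2.95 ± 0.47, adjusted p = 0.000245) and the annexin ANXA2 (2.64 ± 0.35, adjusted p = 3.40e-05). Outside the list, 2 genes of the leading group have related roles. DSTN, destrin, an actin-severing protein, lay at 6.99 and 6.10 in the nodes and 10.36 to 12.48 in tumors (4.74 ± 0.41, adjusted p = 1.25e-07), and its 8 other probe sets were higher too, by 0.53 to 5.01. CD109, a surface protein that binds TGF-beta, lay at 4.11 and 4.54 against 7.24 to 11.74 (4.93 ± 0.76, adjusted p = 0.000174). The contractile genes TPM1 (2.03 ± 0.32, adjusted p = 0.000189) and CALD1 (1.99 ± 0.45, adjusted p = 0.00625) were the 2 higher of 12 pericyte and smooth muscle genes. Calls were lost without lymph node 1 for CD109 (0.0109), TPM1 (0.0105) and CALD1 (0.0134), and without lymph node 2 for SDC2 (0.0697) and CALD1 (0.32).

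RBP4, the retinol carrier of plasma, lay at 7.59 and 5.84 in the nodes and 9.44 to 13.08 in tumors (5.06 ± 0.69, adjusted p = 4.91e-05; 0.0142 without lymph node 2). Its second probe set differed by 0.41. Among the 12 genes with the largest excess, SERPINF1, COL3A1 and CD109 lost their calls on the arrays of either 5′ class alone. CCN2 and TFPI2 lost theirs on low 5′ arrays alone, and COL5A1 and RBP4 on full 5′ arrays alone. Outside the leading genes, DCN, TIMP1 and ANXA2 lost theirs on low 5′ arrays alone. Of 21 measured osteosarcoma and cancer genes, RBP4, TFPI2 and FOS were higher and ABCB1 lower. FOS, a subunit of the transcription factor AP-1, lay at 6.23 and 4.75 in the nodes and 7.98 to 12.33 in tumors (4.23 ± 0.89, adjusted p = 0.00386), with an adjusted p of 0.0205 without lymph node 1 and 0.187 without lymph node 2. ABCB1, the drug efflux pump P-glycoprotein, lay at 6.43 and 5.88 against 2.88 to 4.20 (-2.73 ± 0.48, adjusted p = 0.000801), with 0.0423 without lymph node 1 and 0.0153 without lymph node 2. The 17 genes named by the study for canine osteosarcoma, chosen there on these samples, are no independent evidence of direction: 9 of 16 measured were higher and 0 lower.

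Lists of genes that most cells use gave few calls, beside 2.52% higher and 3.43% lower over all genes. The shares called higher were 1.96% for the respiratory chain and 3.45% for hypoxia and glycolysis. The share called lower was 1.59% for ribosomal proteins. Of 21 measured cell cycle genes 0 were called, with a median of 0.08, and the most distant were CDKN1A (2.41 ± 0.80, adjusted p = 0.0773) and FOXM1 (0.84 ± 0.63, adjusted p = 0.622). Of 51 respiratory chain genes NDUFA8 was the 1 called (1.61 ± 0.32, adjusted p = 0.00225; 0.0639 without lymph node 1 and 0.0425 without lymph node 2). Of 29 hypoxia and glycolysis genes 26 had a difference above 0, with a median of 0.73, and BNIP3, a mitochondrial mediator of autophagy, was the 1 called (3.03 ± 0.71, adjusted p = 0.00895). Its 4 other probe sets differed by -0.03 to 2.82. BNIP3 lost the call without lymph node 1 (0.0547), without lymph node 2 (0.23) and without any of tumors 3, 4, 5, 7, 8, 9 and 11 (0.0104 to 0.0128), and BNIP3 also lost it with the replicate block that pairs same-numbered organ samples (0.0104). Of 63 ribosomal protein genes 55 had a difference below 0, with a median of -0.35, and FAU was the 1 called (-1.22 ± 0.21, adjusted p = 0.000533; 0.0135 without lymph node 1 and 0.0314 without lymph node 2).

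Markers of other tissues moved in single samples or genes. Of the skeletal muscle genes measured 4% were called lower and 0% higher, against 3.43% and 2.52% of all genes. Skeletal muscle genes gave 1 call among 25, ATP2A1 (-1.11 ± 0.26, adjusted p = 0.00992), a calcium pump whose 2 other probe sets differed by -0.07 and 0.44 and which lost the call without lymph node 1 (0.169), without lymph node 2 (0.0972), without each of 12 tumors (0.0102 to 0.0143) and with the replicate block (0.0109). MYLPF, a fast muscle light chain, lay at 4.17 and 4.18 in the nodes and at 10.35 in tumor 5 and 8.22 in tumor 3 (1.65 ± 1.06, adjusted p = 0.525), while ACTA1 overlapped between the groups (-0.40 ± 0.34, adjusted p = 0.69; its 3 other probe sets differed by 0.01 to 0.55). Tumor 5, which had the highest skeletal muscle score, was also the tumor with the highest RIPOR2, PRKCQ and C6 and the lowest COL1A1 and CTSK, and it had the highest scores for adipocyte (3.19, next 1.43), pericyte (2.95, next 2.13) and endothelial genes as well. The part of these tissues in its values was not tested. Without tumor 5, 190 genes were higher and 222 lower. Of 12 endothelial genes ICAM2 was lower and PDPN, podoplanin, higher (4.12 ± 0.75, adjusted p = 0.00108; 0.0976 without lymph node 2), at 5.54 and 4.14 in the nodes and 6.94 to 11.06 in tumors. Podoplanin marks lymphatic vessels and also occurs on osteoblast-lineage cells.

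Of 25 genes of hepatocytes and kidney epithelium AQP1, a water channel also found in vessels, was higher (2.45 ± 0.50, adjusted p = 0.00303), at 8.07 and 7.15 in the nodes and 8.79 to 11.60 in tumors, with an adjusted p of 0.0151 without lymph node 1 and 0.175 without lymph node 2. Its 3 other probe sets differed by 0.15 to 0.98. TTR, transthyretin, was higher by 1.90 ± 0.38 (adjusted p = 0.00241; 0.0369 without lymph node 1 and 0.0809 without lymph node 2), but 2 of its 4 other probe sets had the opposite sign. The defining liver and kidney markers ALB (3.23 to 3.61 in tumors) and UMOD (5.64 to 6.40) were not above the nodes by the test (adjusted p = 0.148 and 0.881). Of 10 adipocyte genes, for which tumor 5 stood apart, RBP4 was the 1 called, and of 6 erythroid genes 0 were, with GYPC at -0.69 ± 0.21 (adjusted p = 0.0534) and TFRC at 0.40 ± 0.35 (adjusted p = 0.711).

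To place the nodes among normal organs, lymph node was tested against the mean of kidney and liver. The contrast uses the same 2 nodes as the comparison with tumors, so a gene picked for its level in the nodes is not tested independently by it, and in the model of all groups its error rests largely on the tumors. That contrast called 340 genes higher in lymph node (5.2%) and 438 lower (6.7%). Over probe sets it called 855 and 1057, but 344 and 479 when the 6 organ arrays were fitted alone. Side by side, CLEC2D was at -6.12 in tumors against lymph node and at 6.07 in lymph node against kidney and liver, CD3D at -5.75 and 5.77, and CD5L at -5.28 and 3.19. For C6 the other organs were bright, at 8.11 and 8.59 in kidney and 11.02 and 11.57 in liver, where the difference of lymph node from the other organs did not pass (-0.83 ± 0.75, adjusted p = 0.634). CD5L was high in liver as well, at 10.99 and 9.01. ABCB1 was lower in lymph node than in kidney and liver (-2.79 ± 0.56, adjusted p = 0.00143), so that the tumor deficit was smallest against lymph node.

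Some genes with a large tumor excess were also bright in kidney or liver. SPP1 lay at 11.13 and 11.34 in kidney, as high as in tumors, and lymph node was lower than the other organs by the test (-4.87 ± 0.72, adjusted p = 5.13e-05). SERPINF1 (-3.98 ± 0.92, adjusted p = 0.00504), RBP4 (-3.93 ± 0.80, adjusted p = 0.00165) and FN1 (-2.69 ± 0.44, adjusted p = 0.000183) were bright in liver, RBP4 at 13.57 and 13.70 there, above the highest tumor. DSTN (-2.31 ± 0.47, adjusted p = 0.00175) was intermediate in both organs. The fibrillar collagens behaved otherwise: the difference of lymph node from kidney and liver did not pass for COL1A1 (0.52 ± 0.85, adjusted p = 0.844), COL5A2 (0.39 ± 0.60, adjusted p = 0.83), COL5A1 (-0.03 ± 0.60, adjusted p = 0.993) or COL3A1 (-0.28 ± 0.92, adjusted p = 0.939).

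**Figure D4:**
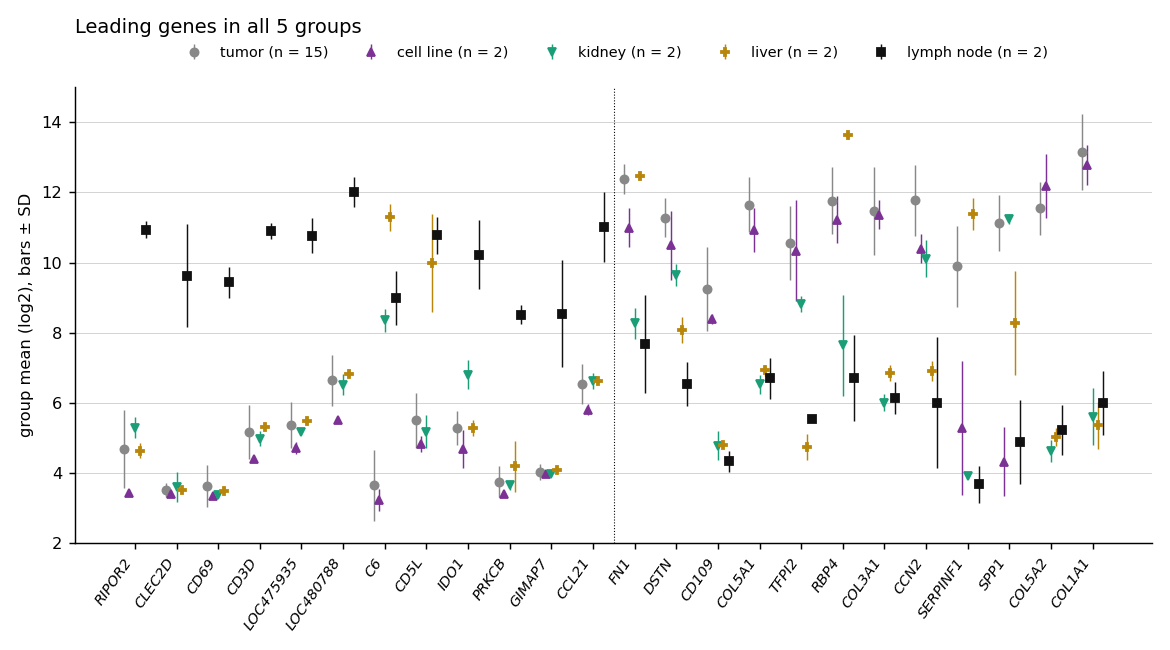
Mean (log2, y axis) of each of the 24 leading genes in tumors, cell lines, kidney, liver and lymph node, with bars of 1 SD and the genes lower in tumors left of the dotted line. Lymph node stands alone at the top for most genes on the left, except C6 and CD5L, where liver is bright too. On the right, RBP4, SERPINF1 and FN1 are as high in liver as in tumors, and SPP1 is as high in kidney.

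Differences within each class of 5′ signal had the sign of the pooled value for all 165 higher and all 224 lower genes. For 161 and 218 of these all tumors lay beyond both nodes, which fixes the sign in advance. The shared sign is therefore no check on the 5′ class. The size of the differences depended on the node. DCN was higher by 3.09 in tumors with low 5′ signal against lymph node 1 and by 5.96 in tumors with full signal against lymph node 2, CCN2 by 4.21 and 7.29, and CD3E was at -1.15 and -3.08. MARCO ran the other way, with -5.46 and -3.12, as did NKG7 with -3.16 and -1.93. Of the 47 named genes that were higher, 37 had the larger excess in the full class, and of the 38 that were lower, 27 had the larger deficit there. The 5′ class and the individual node cannot be told apart, because each class held 1 node. For a single gene in which all tumors lay on 1 side of both nodes, the exact permutation test over all assignments of the samples gave its smallest two-sided p of 0.0147. The study describes its normal samples as biological replicates that were not pooled.

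**Figure D5:**
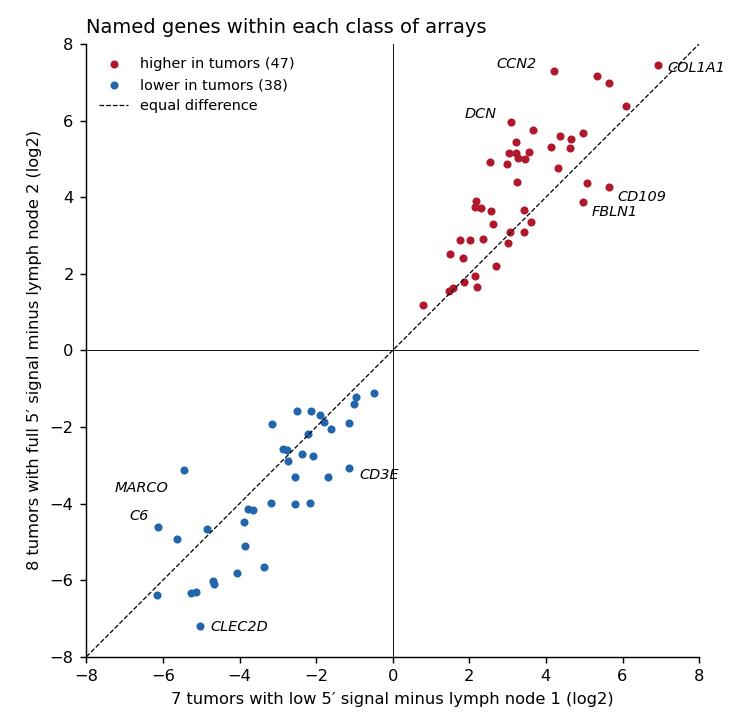
Difference of each of the 85 named genes called between tumors and nodes within the low 5′ class (x axis, 7 tumors minus lymph node 1, log2) and within the full 5′ class (y axis, 8 tumors minus lymph node 2, log2), with the line of equality dashed. All points lie in the lower left or the upper right, which is fixed in advance where all tumors lay beyond both nodes. Above the line lie 37 of 47 higher genes, and below it 27 of 38 lower genes.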

How the data were processed

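Values were the log2 expression values deposited by the authors for 23 canine arrays (15 tumors, 2 cell lines and 2 samples each of kidney, liver and lymph node), made per the study's methods by robust multi-array averaging of all canine arrays together; software versions are not given in the sources used here. The table held 23913 probe sets, values between 2.52 and 14.17 and 0 missing entries. After removal of 77 controls, 10549 probe sets had 1 symbol in the platform annotation, 138 several and 13149 none, and genes were named from the first kind only. Arrays carry no read depth, so precision is set by how many were hybridized.

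Groups followed the labels. A model of all 23 arrays in 5 groups was fitted in R 4.3.3 by the functions lmFit and eBayes of limma 3.58.1 (two-sided tests), so that the 2 nodes borrowed the spread of the other groups, with Benjamini-Hochberg adjustment over 23836 probe sets and a threshold of 0.01. The steps were tested on simulated data with independent noise and the same spread in all groups. These data held no 5′ classes and no unlike nodes, so they do not check the effect of either. Members and the 40 gene lists were chosen with earlier results of these data known. Named genes were the 12 of largest excess and deficit, the 4 largest called members of each list in each direction, all cell type markers, and the 2 most distant members of lists without a call; others are marked as named after their values were seen, and CXCL8, B2M, CANX, CALR, COL2A1 and the COL4A chains near 0 also were. Alternatives covered a model of the 17 samples, the 5′ index as covariate, each 5′ class alone, array weights, a trended prior, median centring, a filter on low values, another threshold, the median of a gene's probe sets and leaving out each sample.

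The replicate block treats same-numbered organ samples as pairs, although the labels do not say that they share an animal or a batch. Deviations of same-numbered organ samples from their organ means correlated at 0.607, 0.596 and 0.530 in the 3 pairs of organs, across probe sets. The pairing rests on the labels' numbering and these correlations alone. It coincides with the 5′ classes, so the correlations cannot tell a shared animal or batch from a shared 5′ class. A search of promoters for motifs was not run, since no promoter sequences were used here.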

Additional observations from a re-analysis of the deposited data

Results flagged for a closer look

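For 16 of the 24 leading genes the difference between tumors and lymph node departed from that against kidney and liver. The test was limma's, of lymph node minus the mean of kidney and liver in the model of all groups. Over all genes it called 5.2% higher in lymph node and 6.7% lower. It uses the same 2 nodes as the comparison with tumors, by which the 24 genes were picked. The count and the adjusted p-values below are therefore no independent test of these genes. Among genes higher in tumors, lymph node was below the other organs for SPP1 (-4.87), SERPINF1 (-3.98), RBP4 (-3.93), FN1 (-2.69) and DSTN (-2.31), with adjusted p from 5.13e-05 to 0.00504. Among genes lower in tumors, lymph node was above the other organs for CLEC2D (6.07), CD69 (6.005), RIPOR2 (5.97), CD3D (5.77), LOC475935 (5.45), LOC480788 (5.35), PRKCB (4.60), GIMAP7 (4.51), CCL21 (4.39), IDO1 (4.19) and CD5L (3.19), with adjusted p from 1.95e-11 to 0.00165. The poly-A spike Dap, a bacterial control transcript outside the comparisons, reached 8.17 on the log2 scale in the highest tumor, and 12 tumors lay above the higher node for it. It followed the 5′ classes of the tumors, at 3.83 to 8.17 with full signal and 3.19 to 3.63 with low signal. Lymph node 1 lay at 3.31 and lymph node 2, of the full class, at 3.22. The reason was not tested.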

How the results depend on the processing

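Counts of probe sets higher and lower in tumors (318 and 693) were 132 and 406 on arrays with full 5′ signal alone, 44 and 116 on arrays with low 5′ signal alone, and 554 and 1234 at an adjusted p under 0.05. Leaving out 1 sample at a time gave 80 to 359 higher and 295 to 729 lower, with the lowest counts without lymph node 2 and 177 and 446 without lymph node 1; a fit without 1 node assumes that the remaining node varies like the other groups. Counts over genes (165 and 224) were 65 and 122 on full and 26 and 41 on low 5′ arrays, with 46 to 190 and 87 to 239 when 1 sample was left out. For lymph node against kidney and liver (855 higher and 1057 lower) the 6 organ arrays alone gave 344 and 479, and leaving out a node 330 to 561 and 615 to 779. With the replicate block, which pairs same-numbered organ samples, the counts were 332 and 755 for tumors and 926 and 1184 for lymph node; of the 85 named calls it ended 2, ATP2A1 and BNIP3.

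Medians of lists moved as follows, in log2 units. On full 5′ arrays they were -2.17 for T cell genes, -2.32 for leukocyte genes, -0.96 for dendritic cells, 4.77 for the genes named by the study and 1.09 for endothelium. On low 5′ arrays they were -0.42 for T cell genes, -0.37 for lymphocyte transcription factors, -1.76 for dendritic cells, -0.44 for macrophages, 1.11 for collagen processing, 0.41 for growth factors, 3.23 for the genes named by the study, -0.23 for endothelium and -0.074 for erythroid genes. A filter on low values gave -1.98 for T cell genes, 0.24 for cytokines, 2.48 for collagens and -0.22 for erythroid genes. The 5′ index as covariate gave 1.44 for collagen processing, and the replicate block with that covariate 1.18. The median of a gene's probe sets gave -1.10 for homing genes and 0.54 for cartilage, and turned ATP2A1 to 0.22 and TTR to -0.032; the cause was not tested. Leaving out 1 sample at a time gave -2.14 to -0.38 for T cell genes, -1.79 to -0.43 for lymphocyte transcription factors, -1.82 to -1.06 for homing genes, -2.30 to -1.77 for leukocyte genes, -0.56 to 0.16 for macrophages, 1.33 to 2.04 for collagen processing, 0.46 to 0.87 for growth factors, 0.39 to 0.84 for transport to the Golgi and 3.28 to 4.79 for the genes named by the study.

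Of the 85 named calls, 58 held without lymph node 1, 42 without lymph node 2, 44 on full 5′ arrays, 26 on low 5′ arrays, 76 in a fit of the 17 samples and 71 with the median of a gene's probe sets; leaving out a tumor ended 0 to 3. The median of a gene's probe sets ended the calls of AQP1, BNIP3, CALU, CD59, COL3A1, CTNNB1, DOCK8, FGFR2, NDUFA8, PDGFRL, SEC31A and TPM1. It reversed ATP2A1 and TTR. Signal near the array's floor limits differences of dim genes such as PAX5 and IL2.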

Other observations

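The 2 osteosarcoma cell lines, which are compared with no group above, are cultures without lymphocytes or blood vessels. CD3D lay at 4.39 and 4.38 in the lines against a tumor median of 4.90, CLEC2D at 3.41 and 3.36 against 3.46, CD69 at 3.28 and 3.40 against 3.34, and GIMAP7 at 3.91 and 4.05 against 4.02. Among MHC class I genes, PSMB8 (3.65 and 4.29, tumor median 6.20), DLA-79 (4.90 and 5.28, tumor median 7.32) and PSMB9 (6.16 and 7.78, tumor median 8.08) lay lower in the lines than in the median tumor, while TAP1 lay at 7.35 and 7.92 (tumor median 7.37). LAPTM5 lay at 4.88 and 4.68 (tumor median 7.96), and CD48 at 3.40 and 3.41 (4.15 to 5.88 in tumors). The mean over MHC class II genes relative to the nodes was -4.68 and -4.47 in the lines, against -2.72 to -0.49 in tumors. JCHAIN lay at 8.39 and 7.70 in the lines, within the tumor range of 5.63 to 11.31. CD40 lay at 5.23 and 7.19, the latter above the highest tumor at 6.87. Readings of JCHAIN and CD40 at these levels thus do not by themselves mark B cells.

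Among collagen genes the lines lay at 13.18 and 12.39 for COL1A1 (tumor median 13.49), at 12.84 and 11.54 for COL5A2 (11.84) and at 12.93 and 11.03 for COL1A2 (13.61), where the second line was below the lowest tumor at 12.01. SPP1 was dim in the lines, at 5.02 and 3.63 against a tumor median of 11.23, as was SERPINF1, at 6.64 and 3.92 against 10.22. These values of 2 lines were not tested.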
